A study of Mus musculus with 4 samples.

Results

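The genes described here are 48 genes of the endoplasmic reticulum (ER), the compartment where secreted and membrane proteins are made, folded and checked. They were taken by name from a list of ER chaperones, translocation and glycosylation proteins, degradation factors and stress sensors, and all 48 were found among the 23305 genes of the expression tables. The rule uses no measured value, but the genes were chosen with earlier results of these data known. Each gene was compared between 2 RNA-seq libraries of WT and 2 of Ets1-/- quiescent follicular B cells, the resting recirculating B cells of the spleen. WT cells came from female C57BL/6 mice, and Ets1-/- cells came from female mice of a mixed C57BL/6 x 129Sv background. Both were sorted as live B220+ CD23hi CD21low cells without CD80, surface IgA, IgE or any IgG subclass. The background of the mice thus differed together with the Ets1 allele, and strain and genotype cannot be told apart. Nothing in the sources used here says how many mice made up a library, and p-values measure the spread between these libraries.

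Proteins enter the ER through the Sec61 channel, lose their signal peptide, receive N-linked sugars and are folded by chaperones and disulfide isomerases. Molecules that do not fold are returned to the cytosol and degraded. When unfolded protein accumulates, the sensors Ern1 (IRE1α), Atf6 and Eif2ak3 (PERK) start the unfolded protein response, in which Ern1 splices the Xbp1 message, Atf6 is cut to release a transcription factor, and Eif2ak3 slows translation while favouring that of Atf4. A B cell that becomes an antibody-secreting plasma cell enlarges its ER, and Xbp1 is needed for that enlargement. B cells without Ets1 are known to turn into antibody-secreting cells too readily. The comparison addressed whether the ER genes already stood higher in Ets1-/- cells that had been sorted as resting follicular cells.

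Many chaperone genes are switched on through the ER stress response element (ERSE), the letters CCAAT and CCACG separated by 9 bases, which NF-Y and Atf6 bind. Promoters of 40 of the 48 genes were found in the RefSeq promoter table for GRCm38.p6, which gives the 250 bases before and 50 bases after each start. ERSE letters, on either strand, stood in 9 of these 40 (22.5%), against 37 of the 27025 genes in the table (0.137%), counting a gene once where any of its promoters held them. The 6 sites below show the element in genes whose expression is described further on, each as 30 bases of the gene's strand with the fixed letters in capitals. In Calr and Derl3 the element lies on the opposite strand and reads CGTGG, 9 bases, ATTGG.
Hspa5, chr2:34772020-34772049, plus strand: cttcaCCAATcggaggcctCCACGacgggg
Calr, chr8:84847069-84847098, minus strand: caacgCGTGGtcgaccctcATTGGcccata
Pdia6, chr12:17266486-17266515, plus strand: agagaCCAATgaaaggcggCCACGgcgtgg
Dnajc3, chr14:118937822-118937851, plus strand: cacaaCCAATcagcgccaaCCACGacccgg
Derl3, chr10:75893237-75893266, plus strand: tctacCGTGGgacttccccATTGGctagcc
Syvn1, chr19:6046527-6046556, plus strand: cgcaaCCAATcggcggtagCCACGggaaca

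The other ERSE genes were Hsp90b1, which held it at 2 places, Canx and Creld2. The second form of the element, ERSE-II (ATTGG, any base, CCACG), was found in Herpud1 and Dnajb11, 5% of the 40, against 0.0444% of all genes. In Herpud1, which encodes a stress-induced ER membrane protein of the degradation machinery, it lies at chr8:94386368-94386397 of the plus strand and reads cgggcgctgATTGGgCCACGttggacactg. The Xbp1 element TGACGTGG (UPRE), whose last letters are those of CCACG on the other strand, was in 0 of the 40 and in 0.714% of all genes. The amino acid response letters TGATGNAA (CARE) were in Herpud1 and Trib3, 5% of the 40, against 4.51% of all genes. A match is a description of the letters in the window and not a measured binding site.

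Values are FPKM, fragments scaled to transcript length and to mapped reads, as the authors deposited them. A gene was tested where its mean FPKM was at least 1 in either genotype, with limma on log2(FPKM + 1) over the 10949 such genes and Benjamini-Hochberg adjustment over all of them. A changed gene had to differ by 1 or more on the log2 scale, in either direction, with an adjusted p no higher than 0.05. By that rule 186 genes changed in the whole transcriptome (1.7% of those tested). Ets1 itself was at 231.2 and 274.8 FPKM in WT and 228.6 and 229.8 in Ets1-/- cells. Since the mutation removes only part of the gene, this total does not check the genotype. All 9 B cell markers examined (Ms4a1, Cd79a, Cd79b and others) were tested and 0 changed, with summed FPKM of 17760 to 20850 in the 4 libraries. Cd74 was the largest part of each sum, at 11570 and 12160 in WT and 12720 and 14860 in Ets1-/- libraries. Without overlap, 2 of the 9 lay above WT and 1, Cd79a, below (1923 and 2051 against 1407 and 1639), where the background was 41.6% in either direction. Summed FPKM of 10 neutrophil markers (S100a8, Ngp, Camp and others) was 114.5 and 94.67 in WT and 2474 and 681.0 in Ets1-/- libraries, with 3 of the 10 (Ngp, Camp and Ltf) changed, all higher. All 10 had a difference above 0, and 8 had an unadjusted p under 0.05 in the limma fit (background 13.3%). Of the 10, 9 lay above WT without overlap (background 41.6% in either direction). Steps between low FPKM values put the depth of WT replicate 2, Ets1-/- replicate 1 and Ets1-/- replicate 2 at 1.75, 1.67 and 0.876 times that of WT replicate 1, with 28.9% to 41.4% of 602 to 806 low genes behind each estimate.

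Resting follicular B cells expressed nearly the whole ER set at a substantial level. Mean WT FPKM ran from 0.57 for Trib3 to 340.3 for Atf4 with a median of 44.9, and 47 genes passed the filter, Trib3 being the exception. The median tested ER gene lay at percentile 82.1 of the WT means of all tested genes. None of the 48 was listed at 0 in any library. The most abundant were Atf4, Calr (calreticulin), Hspa5 (BiP) and Dad1, and the least abundant were Trib3, Ern1, Derl3 and Ssr1. The summed FPKM of the 48 genes was 3178 and 3625 in WT and 3571 and 3423 in Ets1-/- libraries, so the genotypes overlapped. As a share of all FPKM the sums were 0.440% and 0.428% in WT and 0.388% and 0.397% in Ets1-/- libraries. The shares, unlike the sums, did not overlap and were lower in both Ets1-/- libraries. They depend on the total FPKM, which was 721900 and 846200 in WT and 919800 and 861900 in Ets1-/- libraries. Values of 41.6% of all tested genes did not overlap either. The shares of the 105 neighbouring genes described below overlapped, at 0.512% and 0.468% in WT and 0.430% and 0.509% in Ets1-/- libraries.

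**Figure D1:**
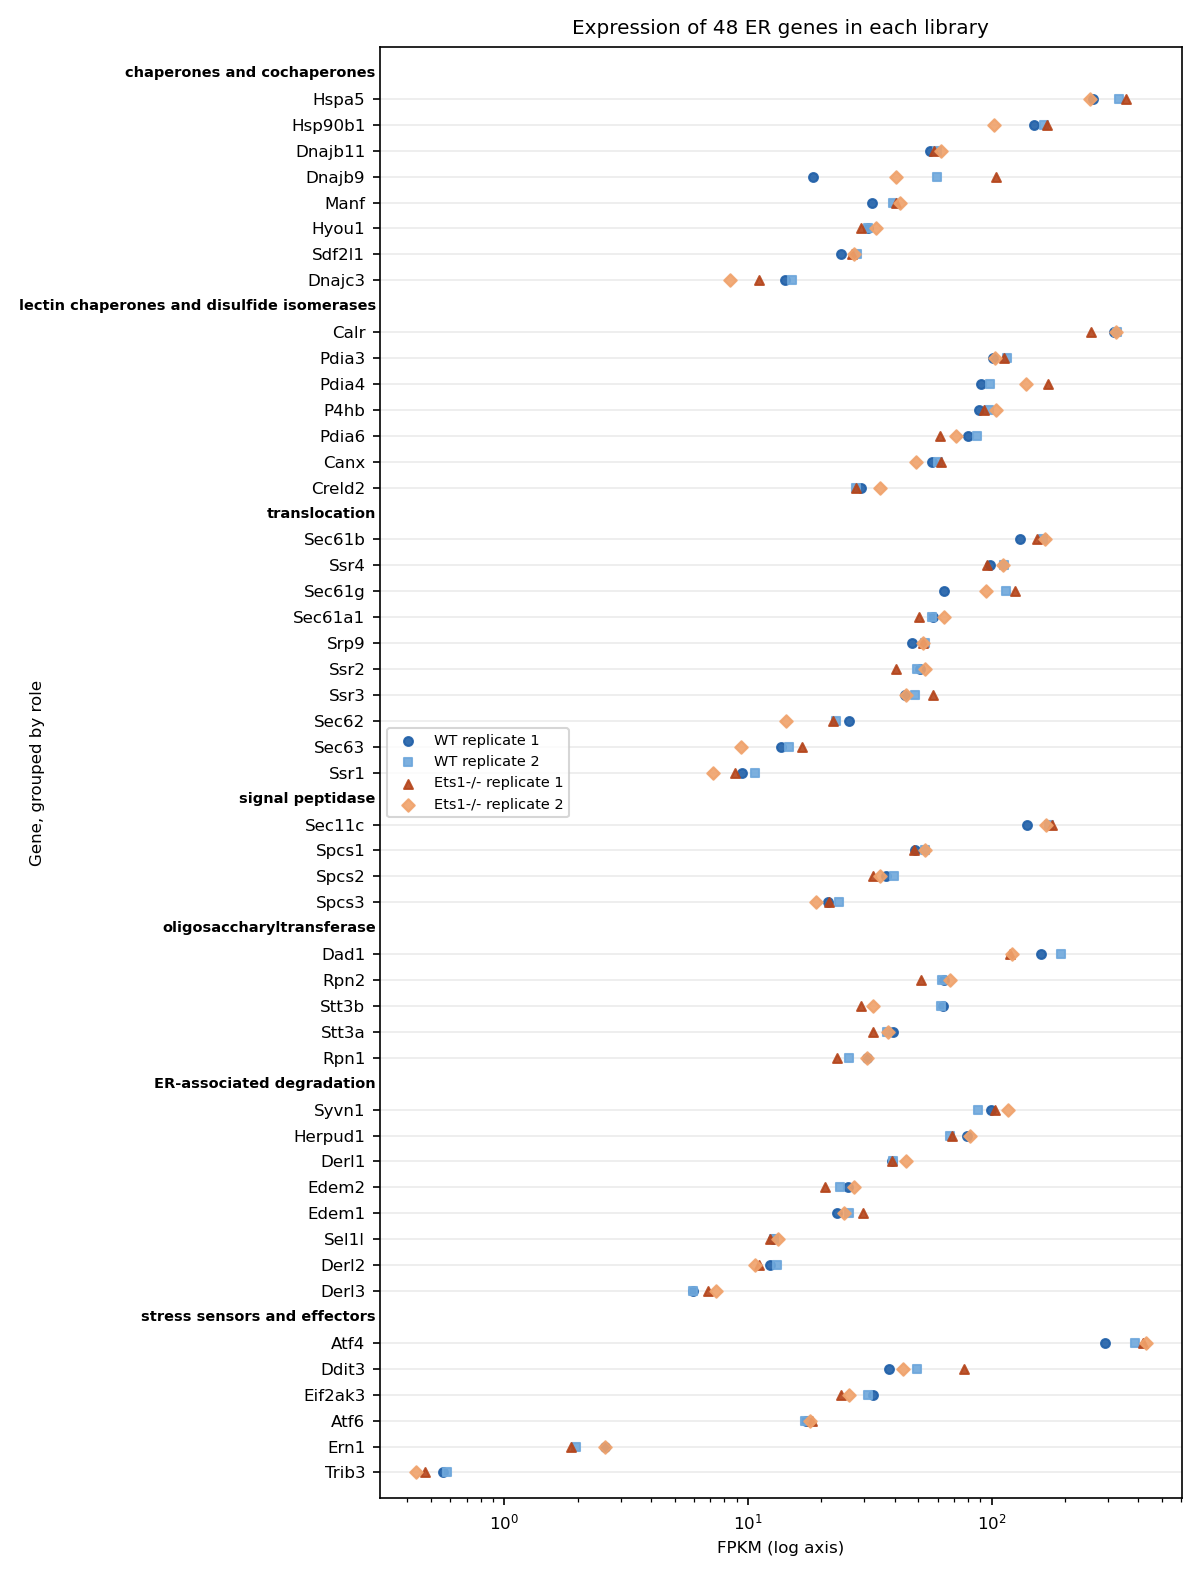
FPKM (log axis) of each of the 48 ER genes in the 4 libraries, grouped by role and ordered by WT mean. Symbols of WT (blue) and Ets1-/- (orange) lie close together for most genes, whereas Stt3b, Dad1 and Dnajc3 are lower in both Ets1-/- libraries, Pdia4 is higher in both, and Dnajb9 is spread widely within each genotype.

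No ER gene was called changed: 0 of 47 tested, where the background was 1.7%. Stt3b, lower in Ets1-/- cells, was the 1 gene whose adjusted p reached 0.05, which 1.74% of all genes did without a minimum fold change. At an unadjusted p under 0.05 there were 4 genes, Stt3b, Dad1 and Dnajc3 lower and Pdia4 higher, 4 of 47 against a background of 13.3% of genes. Fitted differences were above 0 for 21 genes and below 0 for 26, with a median log2 fold change of -0.0046 (all tested genes, -0.0152). The median absolute difference was 0.13 for the ER genes and 0.16 for all genes. FPKM values of the genotypes did not overlap for 15 of 47 genes, 6 higher and 9 lower in Ets1-/- cells, where 41.6% of all tested genes did not overlap. The 95% interval of the difference lay within 2-fold in either direction for 41 genes (87.2%; all genes, 83.5%). For the other 6, Dnajb9, Pdia4, Sec61g, Sec62, Stt3b and Ddit3, a difference of 2-fold was within the interval.

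**Figure D2:**
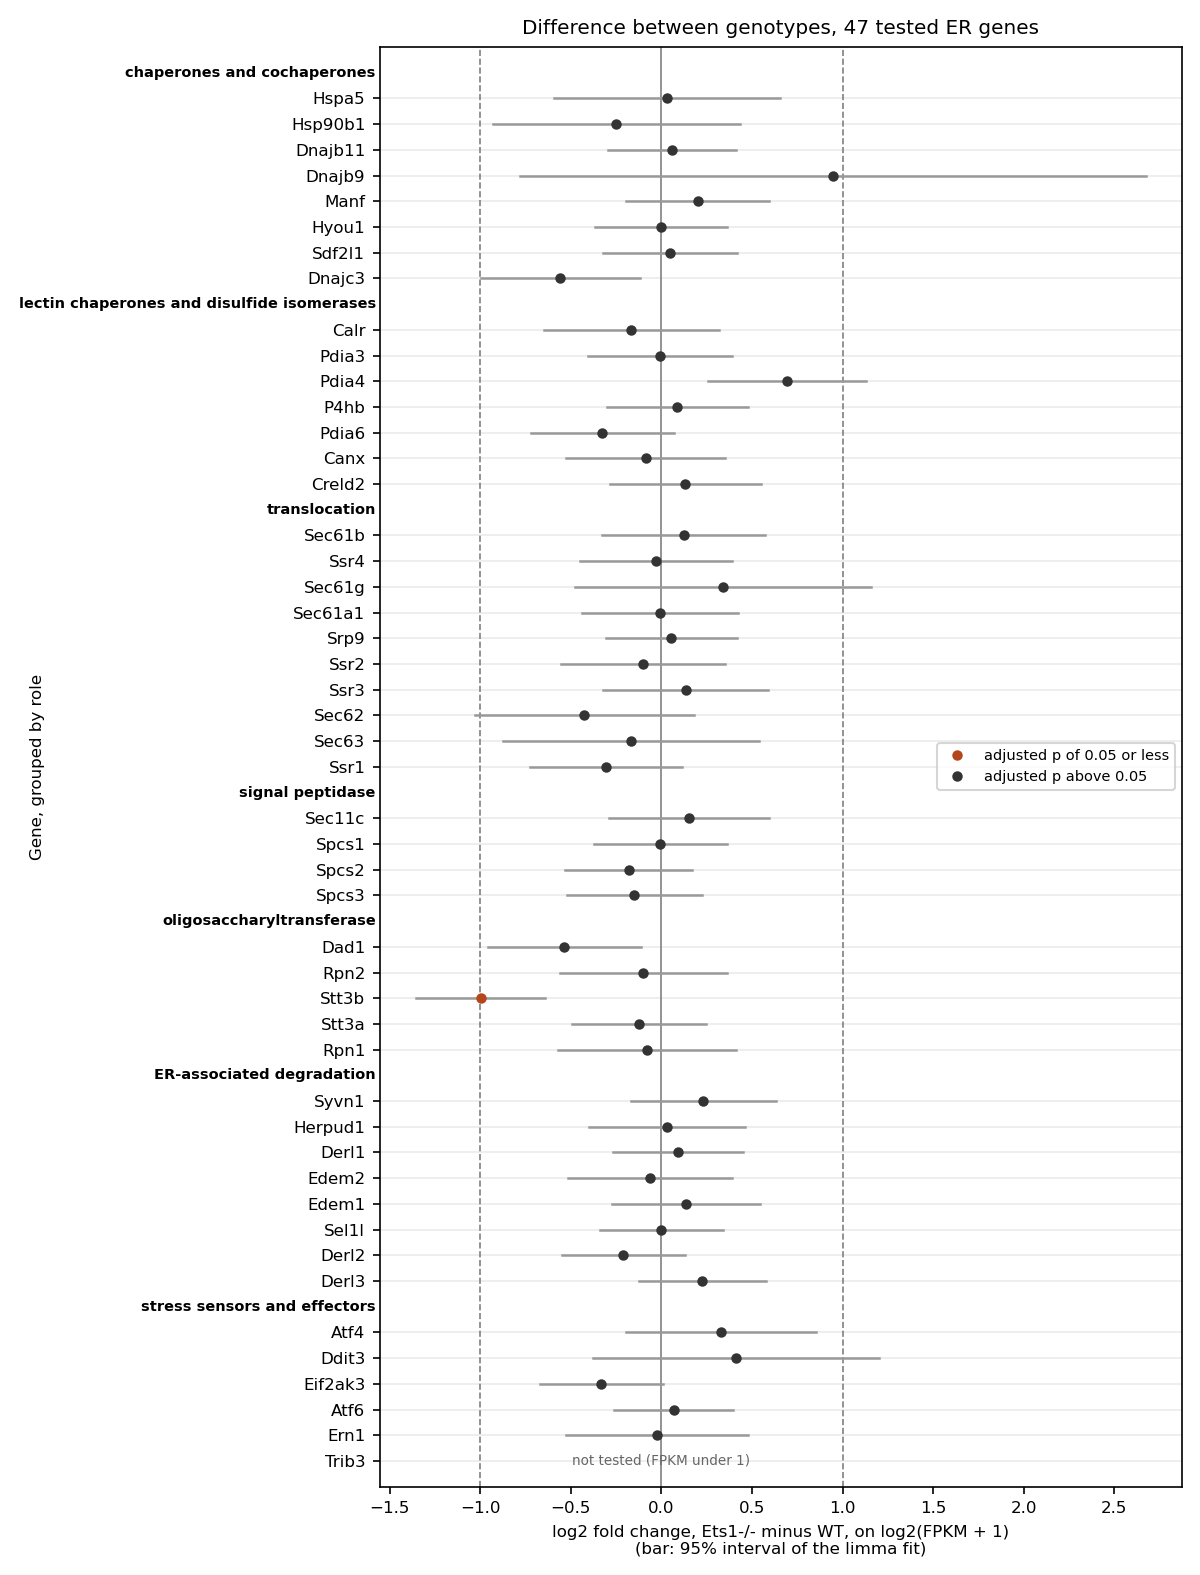
Log2 fold change (Ets1-/- minus WT, on log2(FPKM + 1)) of the 47 tested ER genes with the 95% interval of the limma fit, n = 2 libraries per genotype; dashed lines mark 2-fold. Most intervals cross 0 and stay between the dashed lines, and Stt3b, at -0.996, is the only gene with an adjusted p of 0.05 or less.

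The oligosaccharyltransferase, the enzyme that transfers the sugar chain to the growing protein, had the lowest median difference of the role groups. All 5 of its listed subunits had a fitted difference below 0, with a median of -0.12, and 2 of the 5 had an unadjusted p under 0.05, while 53.1% of all tested genes had a difference below 0. The 5 further subunits tested outside the 48 genes were not all lower: Ddost (0.00), Ostc (0.01) and Krtcap2 (0.24) had differences above 0 and Tusc3 (-0.29) and Magt1 (-0.28) below 0, none with an unadjusted p under 0.05. Stt3b, a catalytic subunit that acts on sites missed during synthesis, was at 63.44 and 61.88 FPKM in WT and 29.18 and 32.74 in Ets1-/- cells. Both Ets1-/- values were about equal and far below both WT values. The log2 fold change was -0.996 (SE 0.14, 95% interval -1.35 to -0.64, adjusted p = 0.0474), just short of the 2-fold minimum on this scale, and the WT mean was 2.02 times the Ets1-/- mean on plain FPKM. With a pseudocount of 0.1, or after quantile or upper-quartile scaling, the log2 fold change was -1.02, -1.01 and -1.01 with adjusted p = 0.0466, 0.0414 and 0.0401, and Stt3b counted as changed. Without any 1 of the 4 libraries the log2 fold change was between -1.08 and -0.92, with adjusted p from 0.0758 to 0.341. Stt3b lies at chr9:115151725-115219539 (mm9, minus strand), 82.6 Mb from Ets1 on the same chromosome.

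Stt3a, the other catalytic subunit, which glycosylates proteins as they enter the ER, was at 39.37 and 37.25 FPKM in WT and 32.75 and 37.70 in Ets1-/- cells, which overlap (log2 fold change -0.12, SE 0.14, adjusted p = 0.853). Stt3a lies 4.0 Mb from Ets1. Within each library the ratio of Stt3b to Stt3a was 1.61 and 1.66 in WT and 0.891 and 0.869 in Ets1-/- cells, so Stt3b was the more abundant of the pair in WT and the less abundant in Ets1-/- cells.

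Dad1, a small structural subunit of the same enzyme, was at 159.4 and 192.5 FPKM in WT and 119.5 and 121.8 in Ets1-/- cells. The genotypes did not overlap and the Ets1-/- libraries were nearly equal, but the difference did not pass adjustment (log2 fold change -0.53, SE 0.17, adjusted p = 0.240). The ribophorins Rpn1 and Rpn2, which make up the scaffold of the complex, overlapped between the genotypes. Summed over the 5 listed subunits, FPKM was 357.0 and 380.0 in WT and 255.9 and 290.6 in Ets1-/- libraries. Dad1 was the largest part of each sum. Ddost, Ostc, Krtcap2, Tusc3 and Magt1 are not in it, so the sum does not stand for the whole enzyme.

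**Figure D3:**
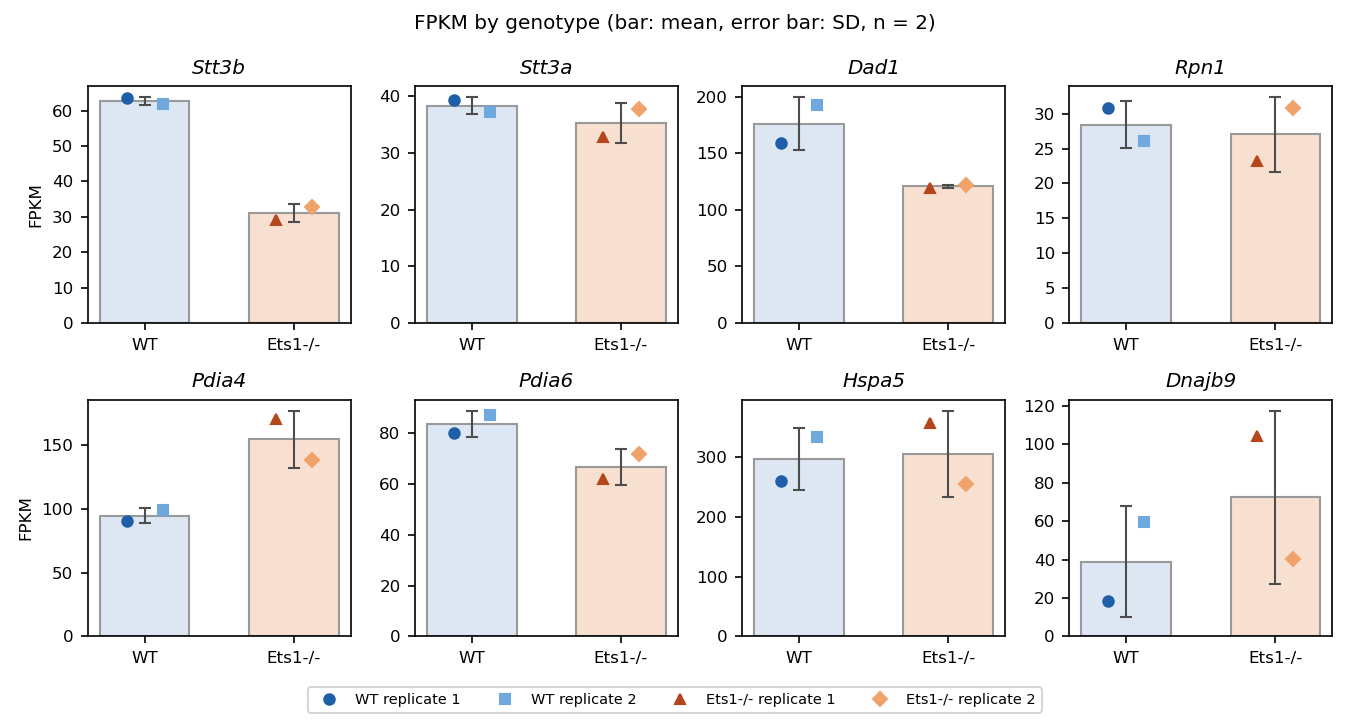
FPKM of 8 ER genes by genotype, on linear axes that start at 0; bars are the mean of 2 libraries, error bars the SD, and points the libraries. Stt3b, Dad1 and Pdia6 lie lower and Pdia4 higher in both Ets1-/- libraries, Stt3a, Rpn1, Hspa5 and Dnajb9 overlap, and the Dnajb9 libraries differ more, as a ratio, within each genotype than those of the other genes shown.

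Among the chaperones, 5 of 8 had a fitted difference above 0 and 3 below, with a median of 0.04. Hspa5, the Hsp70 of the ER lumen that holds the stress sensors inactive, was at 260.6 and 334.3 FPKM in WT and 356.6 and 254.7 in Ets1-/- cells. The highest and the lowest value both came from Ets1-/- libraries (log2 fold change 0.03, SE 0.24, 95% interval -0.59 to 0.65, adjusted p = 0.991), and its sign turned when Ets1-/- replicate 1 (-0.21) or WT replicate 1 (-0.15) was left out. Hsp90b1, the Hsp90 of the ER, was at 149.9 and 163.8 in WT and 168.7 and 102.8 in Ets1-/- cells. Here too the Ets1-/- libraries lay on either side of WT (log2 fold change -0.25, SE 0.27, adjusted p = 0.826).

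Dnajc3, an Hspa5 cochaperone that also restrains PERK, was at 14.25 and 15.23 FPKM in WT and 11.06 and 8.47 in Ets1-/- cells. The genotypes did not overlap, and the difference did not pass adjustment (log2 fold change -0.56, SE 0.17, adjusted p = 0.236). Manf, a secreted ER stress protein, was at 32.40 and 39.25 in WT and 40.40 and 41.94 in Ets1-/- cells, above WT in both libraries by a small margin (log2 fold change 0.20, adjusted p = 0.719). Dnajb11, Hyou1 and Sdf2l1, a cochaperone, an Hspa5 exchange factor and a partner of Dnajb11, differed by at most 0.06 on the log2 scale and overlapped between the genotypes.

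Dnajb9, an Hspa5 cochaperone that represses IRE1α, had the largest fitted difference above 0 and the least reproducible values. Its FPKM was 18.45 and 59.48 in WT and 104.2 and 40.49 in Ets1-/- cells. The WT libraries differed more than 3-fold and the Ets1-/- libraries more than 2-fold, and the lower Ets1-/- value fell below the higher WT value. The log2 fold change was 0.95 (SE 0.68, 95% interval -0.78 to 2.67, adjusted p = 0.687), and leaving out 1 library at a time gave 0.13 to 1.76.

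Of the 7 lectin chaperones and disulfide isomerases, 2 did not overlap between the genotypes, 1 in each direction (background 41.6% in either direction). Pdia4, a disulfide isomerase that works in a complex with Hspa5, was at 90.75 and 98.99 FPKM in WT and 170.5 and 138.8 in Ets1-/- cells. Both Ets1-/- libraries exceeded both WT libraries, with a ratio of means of 1.63, and the difference did not pass adjustment (log2 fold change 0.69, SE 0.17, 95% interval 0.26 to 1.13, adjusted p = 0.157). Pdia6, an isomerase of the same family that acts on IRE1α and PERK, was at 79.93 and 87.14 in WT and 61.66 and 71.55 in Ets1-/- cells, without overlap in the other direction (log2 fold change -0.33, SE 0.15, adjusted p = 0.482). The ratio of Pdia4 to Pdia6 within a library was 1.13 and 1.14 in WT and 2.77 and 1.94 in Ets1-/- cells. These genes had the highest and the lowest difference of the group, so their ratio restates both differences and is no separate support. The ERSE letters were found in the Pdia6 promoter window and not in that of Pdia4.

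The remaining 5 genes of that group overlapped between the genotypes. Calr and Canx, the calreticulin and calnexin that hold glycoproteins during folding, had log2 fold changes of -0.16 and -0.09. Pdia3, which works with both, was at -0.01, and P4hb, the founding disulfide isomerase, was at 0.09. Creld2, which is induced by ER stress, was at 0.13.

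None of the 10 translocation genes had an unadjusted p under 0.05. Sec61a1, the pore of the channel, was at 57.50 and 56.84 FPKM in WT and 50.52 and 64.02 in Ets1-/- cells, and Sec61b, a small subunit, at 131.1 and 162.6 against 153.2 and 165.3. Sec61g, the other small subunit, was at 64.03 and 115.0 in WT and 125.3 and 94.79 in Ets1-/- cells, and its log2 fold change of 0.34 (SE 0.32, adjusted p = 0.787) became -0.08 without WT replicate 1, the lowest of the 4. Sec62 and Sec63, which help proteins that enter after synthesis, were low in Ets1-/- replicate 2. Sec62 was at 25.89 and 23.06 in WT and 22.43 and 14.33 in Ets1-/- cells (log2 fold change -0.42, SE 0.24, adjusted p = 0.580). Sec63 was at 13.64 and 14.71 in WT and 16.66 and 9.34 in Ets1-/- cells, and its log2 fold change of -0.17 became 0.22 without Ets1-/- replicate 2. Ssr1, a subunit of the translocon-associated complex, was at 9.47 and 10.74 in WT and 8.84 and 7.18 in Ets1-/- cells (log2 fold change -0.31, SE 0.16, adjusted p = 0.558). The other subunits Ssr2, Ssr3 and Ssr4 and the signal recognition particle gene Srp9 had differences between -0.10 and 0.14 and overlapped.

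The signal peptidase, which removes the signal peptide, was among the steadiest groups. The 4 genes Spcs1, Spcs2, Spcs3 and Sec11c had log2 fold changes from -0.18 to 0.15, and the 95% interval of every one lay within 2-fold. Spcs2 alone did not overlap, at 36.71 and 39.94 FPKM in WT and 32.57 and 34.87 in Ets1-/- cells (adjusted p = 0.716). Sec11c, a catalytic subunit that also served here as a plasma cell marker, was at 139.8 and 171.3 in WT and 177.3 and 167.2 in Ets1-/- cells.

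The 8 genes of ER-associated degradation likewise all had intervals within 2-fold, and their log2 fold changes ran from -0.21 to 0.23. Syvn1, the ubiquitin ligase Hrd1 that drives this pathway, was at 99.35 and 88.09 FPKM in WT and 103.5 and 117.1 in Ets1-/- cells, without overlap (log2 fold change 0.23, SE 0.16, adjusted p = 0.663). Derl3, a membrane protein of the export channel known for its high level in plasma cells, was at 5.93 and 5.96 in WT and 6.86 and 7.38 in Ets1-/- cells, also without overlap (log2 fold change 0.23, SE 0.14, adjusted p = 0.630). Derl2 lay below WT, at 12.34 and 13.16 against 11.08 and 10.70. Sel1l, the partner of Syvn1, had nearly equal means (12.76 FPKM in both genotypes), and Herpud1, Edem1, Edem2 and Derl1 overlapped between the genotypes.

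The stress sensors had differences on both sides of 0. Ern1 was low in all libraries, at 2.60 and 1.97 FPKM in WT and 1.88 and 2.60 in Ets1-/- cells (log2 fold change -0.02, SE 0.20, adjusted p = 0.991). Its sign turned without Ets1-/- replicate 1 (0.14) or without WT replicate 1 (0.12). Atf6 was at 17.39 and 17.12 in WT and 18.28 and 17.98 in Ets1-/- cells, a gap between the genotypes that was small but free of overlap (log2 fold change 0.07, SE 0.13, adjusted p = 0.917). Eif2ak3 was at 32.47 and 31.16 in WT and 24.16 and 25.99 in Ets1-/- cells, lower in both Ets1-/- libraries (log2 fold change -0.33, SE 0.13, unadjusted p = 0.0536, adjusted p = 0.385).

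Downstream of Eif2ak3, Atf4 was at 293.0 and 387.6 FPKM in WT and 418.8 and 428.6 in Ets1-/- cells, above WT in both (log2 fold change 0.33, SE 0.20, adjusted p = 0.639). Atf4 is controlled mainly at translation, which RNA levels do not show. Ddit3 (CHOP), a transcription factor that Atf4 induces, was at 37.94 and 49.41 in WT and 77.09 and 43.47 in Ets1-/- cells, with only Ets1-/- replicate 1 above WT (log2 fold change 0.41, SE 0.31, adjusted p = 0.708). Leaving out 1 library at a time gave 0.01 to 0.82. Trib3, a late target of Ddit3, was at 0.56 and 0.58 in WT and 0.47 and 0.44 in Ets1-/- cells and was not tested.

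The 9 genes with ERSE letters did not stand apart from the others. They had 4 differences above 0 and 5 below, a median log2 fold change of -0.09 and a range of -0.56 (Dnajc3) to 0.23 (Syvn1). The 30 tested genes whose promoter window lacked the letters had a median of -0.01 and a range of -0.996 to 0.95.

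Differences between replicates were wider in Ets1-/- than in WT cells, for the ER genes as for all genes. The median absolute log2 difference between replicates was 0.13 in WT and 0.21 in Ets1-/- cells for the tested ER genes, and 0.13 and 0.26 for all tested genes. WT replicate 2 was above WT replicate 1 for 32 of 47 ER genes (68.1%), against 49.5% of all genes, and Ets1-/- replicate 1 was above replicate 2 for 18 of 47 (38.3%), against 45.5%. Besides Dnajb9, the Ets1-/- replicates differed most for Ddit3, Sec63 and Hsp90b1, all higher in replicate 1. Ets1-/- replicate 1 was the library with the highest neutrophil marker sum and replicate 2 the one with the lowest estimated depth; the part of either in these gaps was not tested.

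**Figure D4:**
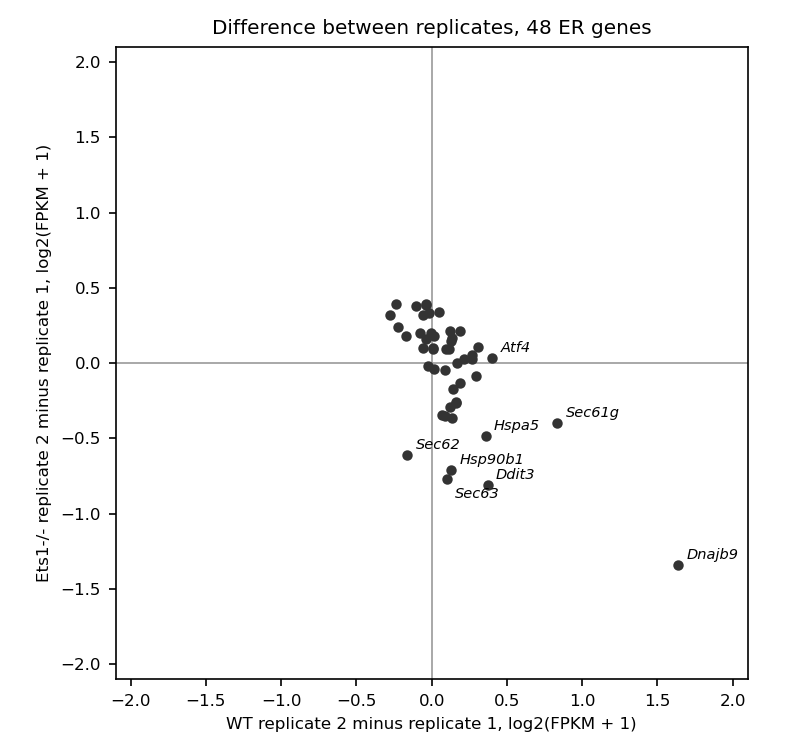
Difference between the replicates of WT (x axis) and of Ets1-/- cells (y axis), each as replicate 2 minus replicate 1 on log2(FPKM + 1), for each of the 48 ER genes. Most genes lie within 0.5 of 0 on both axes, and Dnajb9 lies far off at 1.64 and -1.34.

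The neighbouring steps of the pathway gave 105 further genes, of which 97 were tested. They had a median log2 fold change of 0.03, with 57 above 0 and 40 below, and 2 changed, both higher, against the background of 1.7%. Medians by step were 0.13 for other folding and redox genes, 0.05 for glycan trimming and degradation, 0.00 for other translocation and glycosylation genes, 0.01 for ER to Golgi transport, -0.07 for other stress signalling and 0.16 for targets of the integrated stress response, the arm that runs through Atf4. Of 18 tested targets of that arm, 13 were above 0, 9 lay above WT and 2 below without overlap (background 41.6% in either direction), 3 had an unadjusted p under 0.05 and 1 changed.

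Asns, the asparagine synthetase that Atf4 induces, rose from 0.381 and 0.854 FPKM in WT to 4.70 and 4.10 in Ets1-/- cells (log2 fold change 1.75, SE 0.20, adjusted p = 0.0282). The level stayed low in all libraries. The adjusted p was 0.105 without Ets1-/- replicate 1, 0.112 without Ets1-/- replicate 2 and 0.0625 without WT replicate 1. Sec24d, a cargo-binding coat protein of the vesicles that leave the ER, rose from 2.13 and 1.99 to 6.40 and 7.33 (log2 fold change 1.36, SE 0.15, adjusted p = 0.0259). Without any 1 of the 4 libraries its adjusted p was between 0.0533 and 0.117. Both genes lost the call without the filter on low values and with a pseudocount of 5, at which the log2 fold changes were 0.74 for Asns and 0.75 for Sec24d; with a pseudocount of 0.1 that of Asns was 2.73.

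Other targets of the Atf4 arm are given as examples chosen after their values were seen. Wars, a tRNA synthetase, was at 32.63 and 28.09 FPKM in WT and 40.79 and 70.92 in Ets1-/- cells (log2 fold change 0.81, adjusted p = 0.310). Atf5, a related transcription factor, was at 2.73 and 2.59 in WT and 3.74 and 4.46 in Ets1-/- cells (log2 fold change 0.48, adjusted p = 0.264). Both were higher in each Ets1-/- library, and neither passed adjustment. Atf3, a stress-induced transcription factor, was at 1.03 and 3.91 FPKM in WT and 37.27 and 3.54 in Ets1-/- cells, so its high value belonged to Ets1-/- replicate 1, the library in which Ddit3 and Dnajb9 were also highest. Ppp1r15a, the phosphatase subunit that restarts translation, was at 205.3 and 375.8 in WT and 409.6 and 424.9 in Ets1-/- cells (adjusted p = 0.565). Chac1, another target, was at 0.12 to 0.28 in all libraries and was not tested. All tested examples above come from the 13 targets with a difference above 0. The 5 below 0 were Ddit4 (-0.41), Cebpg (-0.22), Slc7a5 (-0.13), Ppp1r15b (-0.08) and Aars (-0.05), none with an unadjusted p under 0.05. The lowest difference of the 97 tested neighbouring genes was that of Eif2ak2, of the other stress signalling list (log2 fold change -1.08, adjusted p = 0.199).

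**Figure D5:**
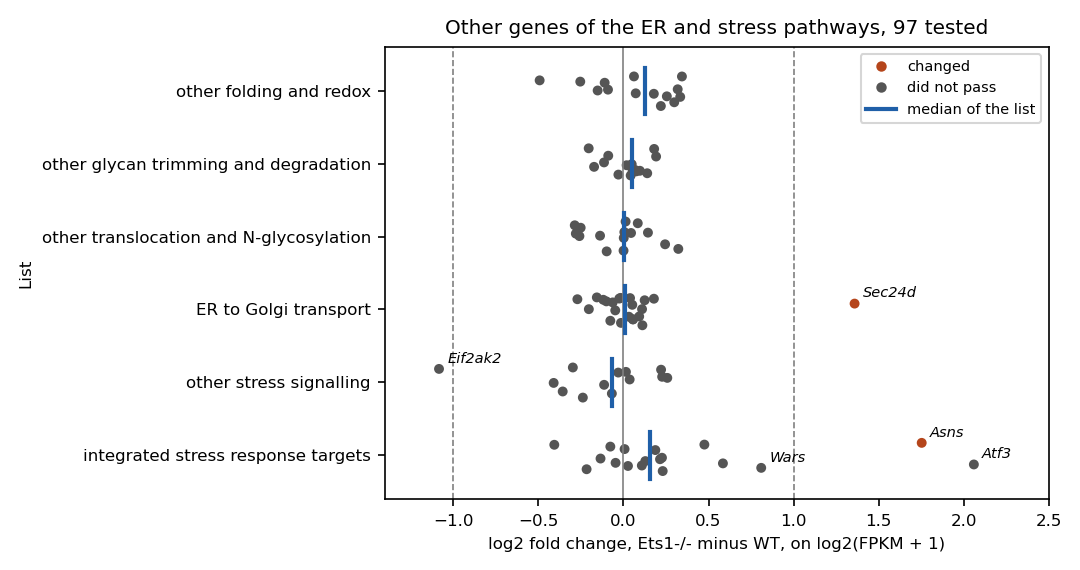
Log2 fold change (Ets1-/- minus WT, on log2(FPKM + 1)) of the 97 tested genes of neighbouring ER and stress steps, by list; blue bars are the list medians and dashed lines mark 2-fold. Nearly all points lie between the dashed lines, and Sec24d and Asns (orange) are the genes that changed.

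Plasma cell markers were read beside the ER genes. Of 13 listed, 12 were tested and 0 changed. An unadjusted p under 0.05 was found for 4 (background 13.3%): Prdm1, Sdc1, Mzb1 and Ell2, all higher in Ets1-/- cells. No marker lower in Ets1-/- cells had such a p. FPKM values of 9 did not overlap between the genotypes, 6 higher and 3 lower in Ets1-/- cells (background 41.6%). Summed FPKM was 534.0 and 626.9 in WT and 645.9 and 669.9 in Ets1-/- libraries. Derl3, Sec11c and Creld2 belong to both lists. Xbp1, the regulator of ER enlargement, was at 49.16 and 42.43 FPKM in WT and 33.76 and 37.19 in Ets1-/- cells (log2 fold change -0.36, adjusted p = 0.415). Splicing of Xbp1 cannot be read from a value per gene. Prdm1, which encodes the plasma cell regulator Blimp1, was at 0.580 and 0.672 in WT and 1.68 and 1.47 in Ets1-/- cells, higher in both but low (log2 fold change 0.66, adjusted p = 0.150). At this level the pseudocount sets the fitted value, which was 1.21 with a pseudocount of 0.1 and 0.22 with 5, and the ratio of mean FPKM was 2.52. The authors, who tested these libraries with Cuffdiff, listed Prdm1 as upregulated in Ets1-/- B cells. They reported the same direction by quantitative RT-PCR, on cells sorted in another way. For it, WT and Ets1-/- mice were both of the mixed background and of both sexes, and cells with CD11b were also excluded.

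Irf4, a further regulator, was at 47.25 and 73.44 FPKM in WT and 45.18 and 22.97 in Ets1-/- cells (adjusted p = 0.444). The surface marker Sdc1 (CD138) was at 7.11 and 5.13 in WT and 9.72 and 19.80 in Ets1-/- cells (log2 fold change 1.08, adjusted p = 0.260). Mzb1, an ER protein of antibody-making B cells, was at 174.7 and 214.6 in WT and 271.7 and 290.5 in Ets1-/- cells (log2 fold change 0.53, adjusted p = 0.278), and Igj, the joining chain of secreted IgM, was at 63.59 and 67.24 against 47.85 and 70.13 (adjusted p = 0.862). Of the tested markers, Prdm1, Sdc1, Mzb1, Ell2, Bhlha15 and Derl3 thus lay higher in both Ets1-/- libraries and Xbp1, Irf4 and Fkbp11 lower, none of them past adjustment. In sorted bulk cells, a small number of strongly expressing cells and a small rise in every cell cannot be told apart.

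Of the markers of other cells, 1 of 10 T cell genes was lower (Thy1). Of 10 monocyte and macrophage genes, 8 were tested and 1 was higher (Adgre1). None of the 10 erythroid and platelet genes, of which 3 were tested, and none of the 8 NK cell genes changed. Yet 5 of the 8 NK cell genes had an unadjusted p under 0.05 (background 13.3%), all lower in Ets1-/- cells. Below WT without overlap lay 6 NK cell genes (background 41.6% in either direction), and the other 2 had differences above 0. All 3 tested erythroid and platelet genes had an unadjusted p under 0.05 and were higher in Ets1-/- cells. Summed FPKM of the monocyte and macrophage list was 65.56 and 32.35 in WT and 157.2 and 98.08 in Ets1-/- libraries, and that of the erythroid and platelet list 7.28 and 5.09 against 66.55 and 29.37. The T cell list gave 150.5 and 126.1 against 116.1 and 151.4, and the NK cell list 47.96 and 32.48 against 21.58 and 32.03. In the NK cell sums, Nkg7 alone gave 15.65 and 13.19 in WT and 15.02 and 18.57 in Ets1-/- libraries. The part of other cells in the values of the ER genes was not tested.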

How the data were processed

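RNA-seq was done on 2 WT and 2 Ets1-/- libraries of sorted splenic follicular B cells (TruSeq libraries, Illumina HiSeq reads). Per the labels and methods, the authors aligned reads with TopHat2 2.0.13 to mm9 and estimated expression with Cuffdiff; its version, annotation and scaling between libraries are not given in the sources used here. The deposited values are FPKM, 1 table per library, with no read counts, so the exact depth is unknown. Of 23309 entries, 4 with repeated symbols were dropped, leaving 23305 genes.

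Genes whose mean FPKM reached 1 in WT or in Ets1-/- cells were fitted with limma 3.58.1 (R 4.3.3) on log2(FPKM + 1), with genotype only, empirical Bayes with a trend (2 residual and 3.10 prior degrees of freedom) and Benjamini-Hochberg adjustment over 10949 genes. The pseudocount understates changes of low genes. The scripts were tested on simulated data. Other values used Python 3.11.15, numpy 2.4.6, pandas 2.3.3 and scipy 1.17.1. An exact permutation test of 2 against 2 cannot go below 0.333 and was not used. Positions of genes are from GENCODE M1 (mm9), and promoter windows from RefSeq (GRCm38.p6); the builds were not mixed. Protein sequences were not analysed here, and 1 gene of the marker lists is not reported here. The ER genes, the neighbouring genes and the markers were chosen with earlier results of these data known. Full values are given for changed genes, the 8 largest rises and 8 largest falls among the ER genes, the main sensors and chaperones, the 3 widest Ets1-/- replicate gaps, and 6 plasma cell genes. Other genes given with values were chosen after these were seen. Replicate numbers are shared between genotypes by the labels alone. Alternatives covered pseudocounts of 0.1 and 5, no filter, quantile and upper-quartile scaling, a replicate block, each library left out, the adjusted p alone, and a ratio without a test.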

Additional observations from a re-analysis of the deposited data

How the results depend on the processing

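With 2 libraries per genotype, differences of about 2-fold in single genes are at the edge of what the fit can call. The count of changed genes (186) was 75 without the filter on low values, 90 with a pseudocount of 5 and 803 by a ratio of mean FPKM of at least 2 without a test. The count of changed ER genes (0) became 1, Stt3b, with a pseudocount of 0.1, quantile normalization, upper-quartile scaling, the adjusted p alone, or the ratio without a test; its adjusted p was 0.0681 without the filter. The 2 changed genes of the neighbouring steps became 0 without the filter or with a pseudocount of 5, 4 by the ratio, and 0 to 1 with 1 library left out, where the lone library is assumed to vary like those of the other genotype. The median of the ER genes ranged from -0.0308 to 0.0619 with 1 library left out, the highest without Ets1-/- replicate 1. Signs turned with 1 library left out for Sec61g (-0.0761 to 0.76), Hsp90b1 (-0.60 to 0.11), Hspa5 (-0.21 to 0.27), Ern1 (-0.18 to 0.14), Sec63 (-0.55 to 0.22) and Igj (-0.44 to 0.10), and for Hspa5 (-0.0651) with quantile normalization; the cause was not tested. Of 308 values of 28 named genes under the alternatives, 284 kept their direction and side of the threshold. That count does not measure robustness. Most of these genes were not called in the main fit and had no call to lose. A replicate block cannot alter the log2 fold change. Every lost call was of Asns or Sec24d, the only named genes called in the main fit. Same-numbered replicates deviated in opposite directions (correlation -0.21), so the numbers are not taken to pair the samples; with the replicate block 266 genes changed, 0 of them among the ER genes, and the adjusted p of Stt3b was 0.0641. With the crossed pairing, chosen after seeing the data, 409 genes changed, 4 of the neighbouring genes, 1 plasma cell marker (Sdc1) and 0 of the ER genes. In that fit the adjusted p was 0.00216 for Stt3b, 0.00391 for Dnajb9, 0.0387 for Pdia4 and 0.0486 for Dnajc3, all below the minimum fold change. Crossing the numbers turns the correlation to 0.21, so lower p-values follow in part from choosing this pairing. They are no support for a difference in these ER genes.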
